A study of Mus musculus with 6 samples.

Results

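The collagen chains are the 43 genes of the count table whose symbol has the form Col, a number, a and a number, out of 19639 genes in all. A collagen is built from 3 chains wound into a triple helix, and each gene encodes one kind of chain. Fibrillar collagens assemble into the tensile fibrils of connective tissue, basement membrane collagens form the sheet-like network under epithelium and endothelium, beaded filament collagens link cells to both, and transmembrane collagens sit in the plasma membrane of epithelial and other cells. In the lung, the alveolar wall is known for a basement membrane that epithelium and capillaries share, and fibroblasts are the main source of its fibrils.

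RNA was measured by sequencing in 6 mouse lung samples. The shThoc1 group is 3 lung samples of RPM mice given a lentivirus with a hairpin against Thoc1, a subunit of the THO complex that couples transcription to export of mRNA. The shControl group is 3 lung samples of RPM mice given a lentivirus with a control hairpin. RPM usually stands for mice that model this lung tumour type (small cell) by combining loss of Rb1 and of Trp53 with overexpressed Myc, and both groups carry the name. The labels give neither the alleles, the promoter behind any Cre or hairpin, the ages nor the time after infection, and they do not say which part of a lung was taken. Nothing in the labels says that every library is another animal, so p-values measure the spread among the 6 samples as deposited, and this may be technical in part. Because a piece of lung holds many cell types, fewer cells of a type and less RNA per cell cannot be told apart in any value here.

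Of the 43 chains, 35 had enough counts for edgeR's quasi-likelihood test, which ran on 15287 genes, and 8 did not (Col2a1, Col6a4, Col6a6, Col9a1, Col9a2, Col22a1, Col25a1 and Col26a1). Values are CPM, the counts of a gene scaled to a common library size, and are given in the order of replicates 1, 2 and 3. Thoc1 was at 53.4, 69.5 and 61.4 CPM in shThoc1 lungs, against 85.7, 80.2 and 85.8 CPM in shControl lungs. The groups did not overlap, and the log2 fold change was -0.45 (SE 0.17, adjusted p = 0.304 by edgeR).

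Libraries of one group differed in the levels of marker genes of several tissues, and whether other tissue than lung was included is not stated. In shThoc1 replicate 2 the 8 alveolar type 1 markers summed to 199 CPM, against 5115 and 4634 CPM in the other shThoc1 libraries and 1627 to 3356 CPM in shControl libraries, and the brown fat gene Ucp1 was at 361 CPM, against at most 0.586 CPM in any other library. The bone matrix gene Ibsp was at 392 CPM in shThoc1 replicate 3 and 1285 CPM in shControl replicate 2, and at most 0.790 CPM in the other 4 libraries. The common biological coefficient of variation was 0.480. Results are therefore given also without shThoc1 replicate 2 and, where it changes them, without shControl replicate 2. Total counts ran from 9934583 to 15025199 per library, with shThoc1 replicate 2 the shallowest.

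The start sites of some of the chains named below show how differently these genes are arranged. The 2 main basement membrane chains, Col4a1 and Col4a2, lie head to head, and in RefSeq's mouse annotation (GRCm38.p6, another build than that of the counts) their first exons share 22 bases at chr8:11312805-11312826. Both strands of this stretch are shown, since reads from it could belong to either gene. Capitals mark the motif GGGCGG or its reverse complement.
Col4a1 strand, minus: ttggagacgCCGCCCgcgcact
Col4a2 strand, plus: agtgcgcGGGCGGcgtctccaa
The 120 bases before the annotated start are shown for 3 chains whose groups did not overlap: Col5a3 (chr9:20815068-20815187, minus strand), Col15a1 (chr4:47207892-47208011, plus strand) and Col17a1 (chr19:47692043-47692162, minus strand), the first 2 lower and the third higher in shThoc1 lungs. Capitals mark the motif GGGCGG, the motif CCAAT or the motif TATAAA on either strand, and no matches overlap here.
Col5a3: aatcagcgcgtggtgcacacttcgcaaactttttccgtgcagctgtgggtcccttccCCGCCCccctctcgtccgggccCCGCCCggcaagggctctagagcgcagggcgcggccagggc
Col15a1: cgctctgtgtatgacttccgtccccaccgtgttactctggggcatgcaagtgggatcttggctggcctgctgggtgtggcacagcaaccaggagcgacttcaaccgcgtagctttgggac
Col17a1: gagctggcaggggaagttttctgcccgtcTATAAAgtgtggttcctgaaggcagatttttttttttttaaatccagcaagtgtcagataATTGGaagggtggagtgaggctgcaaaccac
Col5a3 had 2 matches to GGGCGG in this stretch, Col17a1 had 1 match each to TATAAA and CCAAT, and Col15a1 had none of the 3 motifs.

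In the longer RefSeq window from 250 bases before to 50 bases after the start, which was at hand for 34 of the 43 chains, GGGCGG occurred in 22 chains (64.7%), against 35.9% of all 27025 gene starts in that table. CCAAT occurred in 12 of the 34 (35.3%), against 37.9% of all, and TATAAA in 5 (14.7%), against 14.2% of all. A match describes the letters and does not show that a factor binds there.

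Most collagen chains had lower fitted values in shThoc1 lungs, but no single chain passed the test at an adjusted p under 0.05. They took 0.230%, 0.107% and 0.324% of all counts in shThoc1 libraries, against 0.437%, 0.933% and 0.282% in shControl libraries, so the groups overlapped through shThoc1 replicate 3 and shControl replicate 3. The log2 fold change was below 0 for 25 of 35 chains, where 47.9% of all tested genes were below 0. The median over the 35 chains was -0.82, and over all tested genes 0.035. Without shThoc1 replicate 2 the medians were -0.91 for the chains and -0.057 for all genes. Without shControl replicate 2 the median of the chains was 0.025, with 17 of 35 below 0, beside 0.088 for all genes. That library was the highest of the 6 for 16 of the 35 chains (45.7%) and for 13.1% of all tested genes. The shThoc1 replicate 2 library was the lowest for 15 chains (42.9%), and for 24.6% of all tested genes.

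edgeR called 0 of the 35 chains, and 0% of all tested genes, at an adjusted p under 0.05 (smallest adjusted p of a chain 0.304). At an unadjusted p under 0.05, 7 chains were lower, where 9.24% of all genes were, and 2 were higher, where 6.93% of all genes were. The groups did not overlap for 6 chains that were lower, against 10.5% of all genes, and for 2 that were higher, against 11.1% of all genes. The authors' deposited table, which has an adjusted p for 38 of the chains, calls 5 lower (Col15a1, Col5a3, Col5a1, Col3a1 and Col8a1), where it calls 3.69% of its genes lower. It calls 1 chain higher, Col17a1, where 2.04% of its genes are called higher. With shThoc1 replicate 2 left out, edgeR called 1 chain lower, Col15a1, where 0.933% of genes were called lower, and 0 higher, where 0.716% of genes were. A DESeq2 fit to the deposited counts, which called 5.72% of its genes, called the 6 chains that the authors' deposited table calls, and so is no separate evidence. Limma's voom with quality weights called 11 of the 35 chains (31.4%), a smaller share than its 44.6% of all genes.

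**Figure D1:**
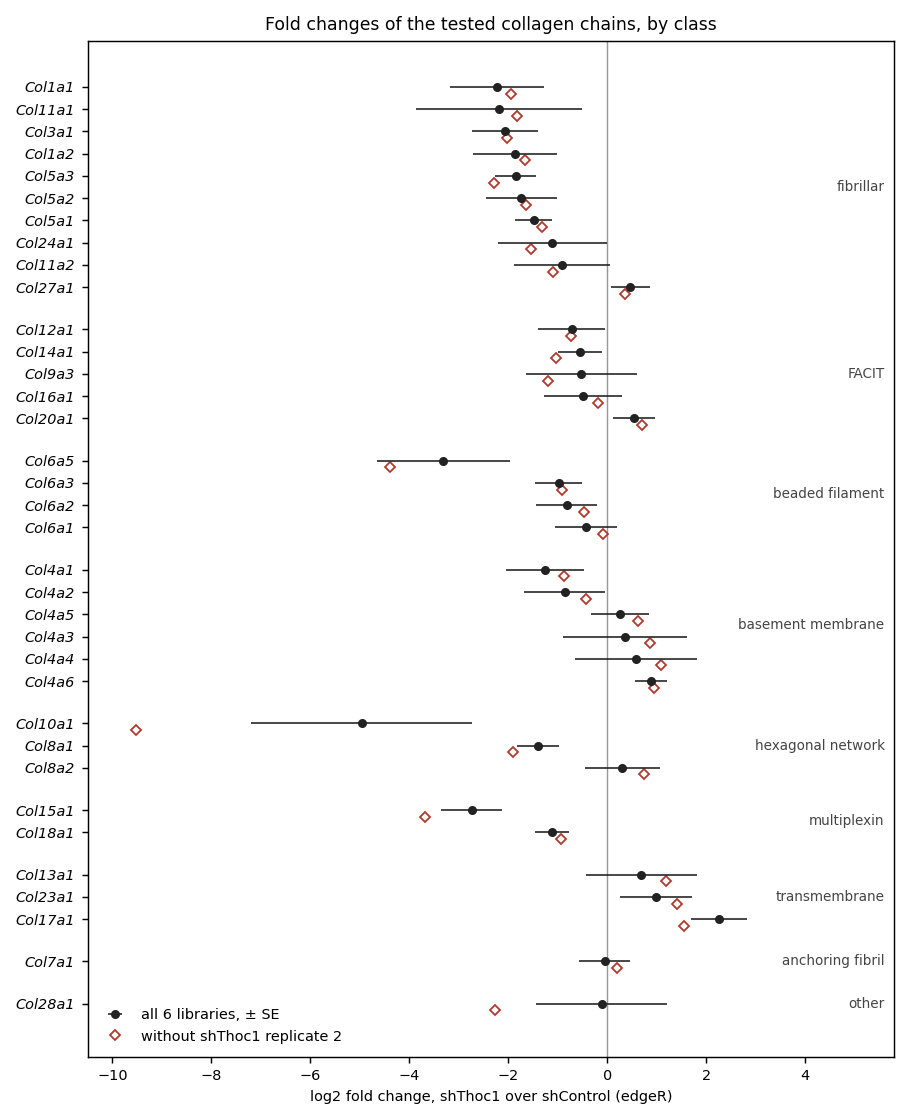
Log2 fold change of each of the 35 tested chains (x axis, shThoc1 over shControl, edgeR), grouped by class down the page. Black points with bars are the fit to all 6 libraries ± SE, and open red diamonds are the fit without shThoc1 replicate 2. All 3 tested transmembrane chains lie right of 0, and 9 of 10 tested fibrillar chains lie left of it.

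Fibrillar chains were lower in shThoc1 lungs for 9 of the 10 tested, with a median log2 fold change of -1.79, and 3 of them (Col3a1, Col5a1 and Col5a3) did not overlap between groups, where 10.5% of all tested genes were lower without overlap. Their summed level was 401, 569 and 1471 CPM in shThoc1 lungs, against 2224, 5860 and 1344 CPM in shControl lungs. The median was -1.66 without shThoc1 replicate 2 and -0.78 without shControl replicate 2. With both libraries that hold Ibsp left out, it was -1.54.

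Col3a1, the chain of type III collagen that co-assembles with type I in soft tissue, was at 141, 261 and 544 CPM in shThoc1 lungs, against 1058, 2247 and 658 CPM in shControl lungs. Every shThoc1 library lay below every shControl library, by a small step between shThoc1 replicate 3 and shControl replicate 3. The log2 fold change was -2.07 (SE 0.67, unadjusted p = 0.0219, adjusted p = 0.304 by edgeR), and the adjusted p was 0.0347 in the authors' deposited table. Between the most and least extreme of the 6 fits that each leave out 1 library, it ran from -2.67 to -1.45. Exons of Col3a1 share 141 bases with the annotated gene Gm47302 on the same strand, so strand could not tell reads there apart.

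Col5a1 and Col5a3 encode chains of type V collagen, a minor component known for starting fibrils and limiting their width. Col5a1 was at 24.5, 17.3 and 36.3 CPM in shThoc1 lungs, against 67.6, 100.1 and 51.4 CPM in shControl lungs. Its log2 fold change was -1.49 (SE 0.38, unadjusted p = 0.00731, adjusted p = 0.304 by edgeR), with an adjusted p of 0.0164 in the authors' deposited table. Col5a3 was at 2.22, 3.85 and 1.86 CPM in shThoc1 lungs, against 10.01, 7.57 and 10.98 CPM in shControl lungs. The 3 libraries of each group lay close together for Col5a3, whose log2 fold change was -1.85 (SE 0.41, unadjusted p = 0.00376, adjusted p = 0.304 by edgeR). In the authors' deposited table the adjusted p of Col5a3 was 0.00122. Without shThoc1 replicate 2 the log2 fold change was -1.33 for Col5a1 (adjusted p = 0.0794 by edgeR) and -2.28 for Col5a3 (adjusted p = 0.0514 by edgeR). Annotated genes, 2 in number, lie opposite to exons of Col5a1 and share 99 and 113 bases with them. The use of strand in counting is not given in the sources used here, so reads there cannot be told apart.

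The chains of type I collagen, the main fibrillar collagen of bone, skin and scar, had overlapping groups. Col1a2 was at 127, 152 and 490 CPM in shThoc1 lungs, against 527, 1922 and 346 CPM in shControl lungs (log2 fold change -1.86, SE 0.85, adjusted p = 0.330 by edgeR). Col1a1 was at 39.1, 43.1 and 227 CPM in shThoc1 lungs, against 353, 929 and 171 CPM in shControl lungs (log2 fold change -2.23, SE 0.95, adjusted p = 0.317 by edgeR). The highest library of each group was the one that holds Ibsp, and the log2 fold change of Col1a2 was -0.79 without shControl replicate 2 alone and -1.59 with both of these libraries left out. The osteoblast list summed to 14.4, 15.1 and 457 CPM in shThoc1 lungs, against 14.4, 1546 and 10.7 CPM in shControl lungs, with Sp7, Bglap and Ibsp at or near 0 outside these 2 libraries. Its part in the type I collagen values was not tested. The same 2 libraries were the 2 highest for 6 of the 35 chains (Col6a1, Col7a1, Col11a1, Col11a2, Col12a1 and Col16a1, 17.1%), against 5.64% of all tested genes. Col11a1, a type XI chain known from cartilage and bone, was at 0.208, 1.48 and 15.7 CPM in shThoc1 lungs, against 4.06, 68.8 and 6.96 CPM in shControl lungs.

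The one fibrillar chain above 0 was Col27a1, a chain known from cartilage, at 10.1, 14.0 and 15.3 CPM in shThoc1 lungs, against 12.3, 10.8 and 5.35 CPM in shControl lungs. The groups overlapped, with a log2 fold change of 0.47 (SE 0.39, adjusted p = 0.534 by edgeR). Of the other fibrillar chains, Col5a2, Col24a1 and Col11a2 overlapped, with log2 fold changes of -1.74, -1.11 and -0.92. Without shControl replicate 2 these were -0.77, 0.47 and 0.44, so that Col24a1 and Col11a2 changed sign. Col2a1, the cartilage chain, had 27 counts over all 6 libraries and was not tested.

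**Figure D2:**
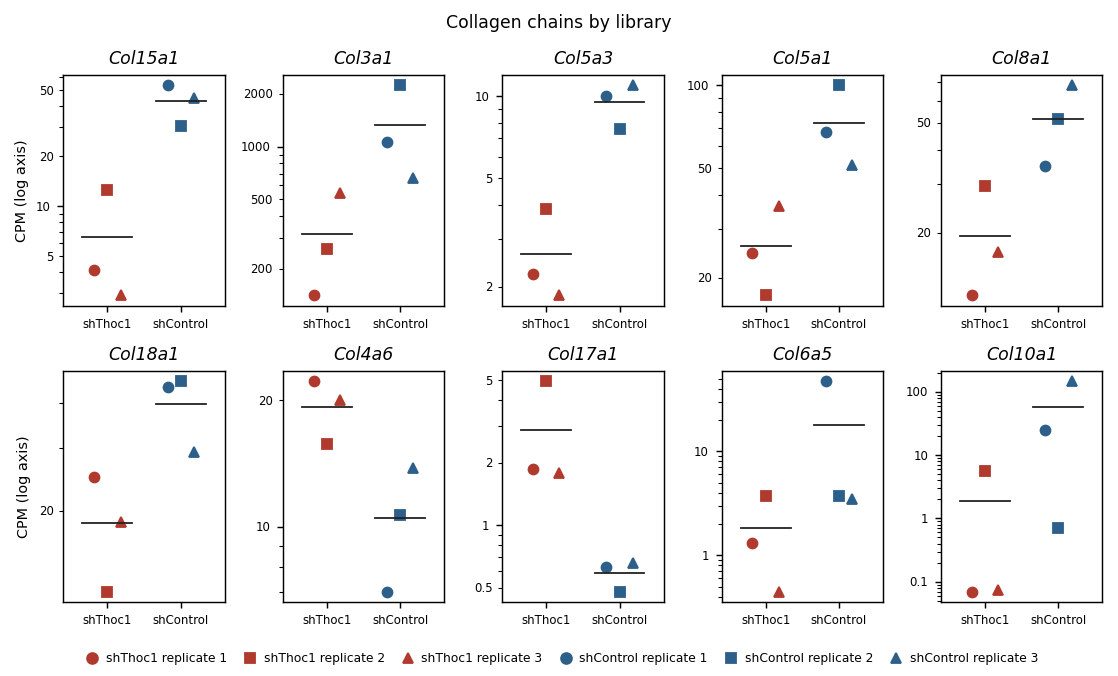
CPM (log axis, one scale per panel) of 10 chains in each library, shThoc1 in red and shControl in blue, with a marker shape per replicate number, which pairs nothing. Black lines are group means. Groups do not overlap for Col15a1, Col3a1, Col5a3, Col5a1, Col8a1, Col18a1, Col4a6 and Col17a1, and overlap for Col6a5 and Col10a1.

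Both multiplexin chains, which tie basement membranes to the tissue beneath and carry a fragment known for blocking vessel growth, were lower in shThoc1 lungs with no overlap. Col15a1 was at 4.10, 12.4 and 2.90 CPM in shThoc1 lungs, against 53.8, 30.4 and 45.3 CPM in shControl lungs. The mean in shThoc1 lungs was 15.0% of the mean in shControl lungs, and the log2 fold change was -2.74 (SE 0.62, unadjusted p = 0.00426, adjusted p = 0.304 by edgeR). Without shThoc1 replicate 2, the highest of its group, the log2 fold change was -3.68 and the adjusted p 0.0488. The authors' deposited table gives Col15a1 an adjusted p of 0.00117, the smallest of all chains there. Exons of Col15a1 share 14 bases with the annotated gene Gm12426 on the other strand. Col18a1 was at 24.9, 11.9 and 18.6 CPM in shThoc1 lungs, against 44.5, 46.0 and 29.2 CPM in shControl lungs, with a log2 fold change of -1.11 (SE 0.34, unadjusted p = 0.0168, adjusted p = 0.304 by edgeR). In the authors' deposited table its adjusted p was 0.0603.

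Beaded filament chains, the subunits of type VI collagen, were below 0 for all 4 tested, with a median log2 fold change of -0.90 and summed levels of 349, 130 and 371 CPM in shThoc1 lungs, against 418, 696 and 237 CPM in shControl lungs. The groups overlapped for each of the 4, and the class median was -0.38 without shControl replicate 2. Col6a1 was at 221, 56.6 and 229 CPM in shThoc1 lungs, against 193, 362 and 131 CPM in shControl lungs (log2 fold change -0.44, SE 0.62), and was at 0.026 without shControl replicate 2. Col6a2, which lies next to Col6a1 on chromosome 10, was at 76.2, 19.95 and 78.8 CPM in shThoc1 lungs, against 97.7, 159 and 53.2 CPM in shControl lungs (log2 fold change -0.82, SE 0.62). Col6a3 had a log2 fold change of -0.98.

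Col6a5, a longer type VI chain that can take the place of Col6a3, followed 1 library. It was at 1.32, 3.75 and 0.446 CPM in shThoc1 lungs, against 47.0, 3.74 and 3.52 CPM in shControl lungs. The log2 fold change was -3.31 (SE 1.35, unadjusted p = 0.0497, adjusted p = 0.308 by edgeR), the groups overlapped, and without shControl replicate 1 it was -1.06. The authors' deposited table holds a fold change but no p-value for this gene. Its neighbour Col6a4, which was not tested, was at 0.764, 8.49 and 0.520 CPM in shThoc1 lungs, against 0.280, 1.12 and 0.293 CPM in shControl lungs, so that shThoc1 replicate 2 alone stood high. Col6a6 had 20 counts in all.

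**Figure D3:**
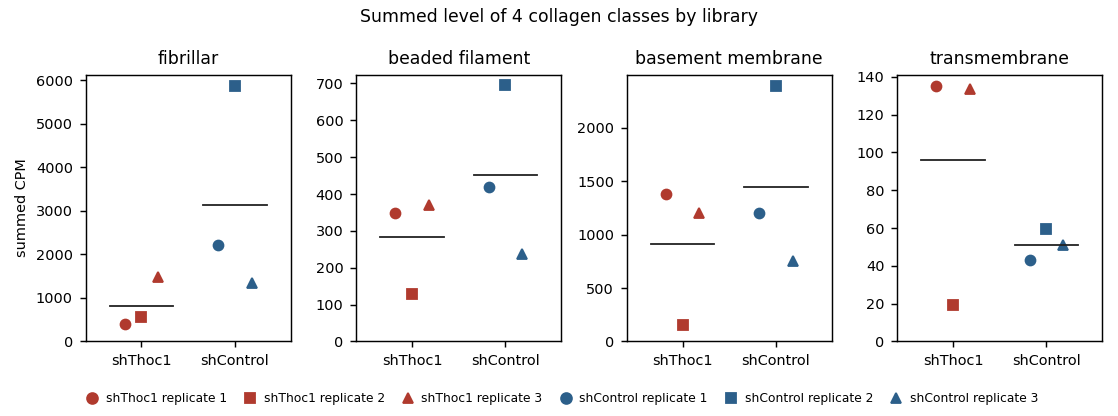
Summed CPM (linear axis from 0) of the fibrillar, beaded filament, basement membrane and transmembrane chains in each library, shThoc1 in red and shControl in blue, with group means as black lines. The shThoc1 replicate 2 library is the lowest for beaded filament, basement membrane and transmembrane chains, and shControl replicate 2 is the highest for fibrillar, beaded filament and basement membrane chains.

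Of the 6 basement membrane chains 2 were below 0 and 4 above, and those of Col4a3, Col4a4 and Col4a5 were within 1 SE of 0. The Col4a1 and Col4a2 pair, which makes the type IV network found under nearly every epithelium and endothelium, was below 0, and Col4a3, Col4a4, Col4a5 and Col4a6, which make the type IV networks of kidney, lung and smooth muscle, were above 0. The class median was 0.31, and it ran from -0.14 without shThoc1 replicate 1 to 0.74 without shThoc1 replicate 2. Col4a3 and Col4a5 also had values below 0 in fits that leave out 1 library (lowest -0.28 and -0.077). Of the 6 chains, only Col4a6 did not overlap between groups.

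Col4a1 was at 402, 61.7 and 315 CPM in shThoc1 lungs, against 527, 1065 and 283 CPM in shControl lungs (log2 fold change -1.27, SE 0.78, adjusted p = 0.420 by edgeR). Col4a2 was at 484, 57.8 and 416 CPM in shThoc1 lungs, against 491, 950 and 300.1 CPM in shControl lungs (log2 fold change -0.86, SE 0.82, adjusted p = 0.583 by edgeR). In both genes shThoc1 replicate 2 was the lowest library and shControl replicate 2 the highest, and the other 4 libraries overlapped. Without shControl replicate 2 the log2 fold changes were -0.68 for Col4a1 and -0.35 for Col4a2.

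Col4a3 was at 205, 2.27 and 165 CPM in shThoc1 lungs, against 77.5, 156 and 57.9 CPM in shControl lungs, and Col4a4 at 199, 2.67 and 207 CPM in shThoc1 lungs, against 65.7, 142 and 67.2 CPM in shControl lungs. The log2 fold changes over 6 libraries were 0.36 (SE 1.25) for Col4a3 and 0.57 (SE 1.23) for Col4a4. Without shThoc1 replicate 2 they were 0.86 (adjusted p = 0.233 by edgeR) for Col4a3 and 1.08 (adjusted p = 0.126 by edgeR) for Col4a4, and the remaining groups did not overlap. The alveolar type 1 list summed to 5115, 199 and 4634 CPM in shThoc1 lungs, against 1721, 3356 and 1627 CPM in shControl lungs, the same order of libraries as for Col4a3. The endothelial list had this order too, at 4920, 363 and 3866 CPM in shThoc1 lungs, against 1407, 2222 and 1248 CPM in shControl lungs. Col4a4 had another order, with shThoc1 replicate 3 the highest. The part of either list in these values was not tested. Col4a3 shares 274 exon bases with an annotated gene on the other strand.

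Col4a6 was at 22.2, 15.7 and 20.1 CPM in shThoc1 lungs, against 7.002, 10.7 and 13.8 CPM in shControl lungs. Every shThoc1 library lay above every shControl library, with a log2 fold change of 0.88 (SE 0.32, unadjusted p = 0.0338, adjusted p = 0.304 by edgeR). Its neighbour on the X chromosome, Col4a5, was at 70.9, 16.6 and 75.9 CPM in shThoc1 lungs, against 36.3, 64.4 and 35.7 CPM in shControl lungs (log2 fold change 0.26, SE 0.59). Without shThoc1 replicate 2 the log2 fold change of Col4a5 was 0.62 (adjusted p = 0.223 by edgeR), and the remaining groups did not overlap.

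**Figure D4:**
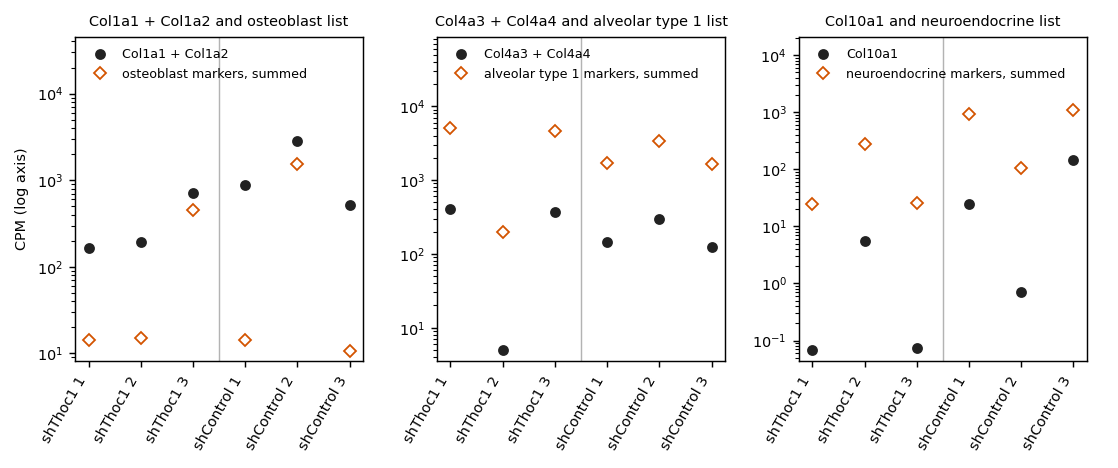
CPM (log axis) of collagen chains (black points) and of summed marker lists (open orange diamonds) in each library, with the 3 shThoc1 libraries left of the grey line. Col1a1 plus Col1a2 is highest, within each group, in the library where the osteoblast list is high, Col4a3 plus Col4a4 and the alveolar type 1 list are both lowest in shThoc1 replicate 2, and Col10a1 and the neuroendocrine list are both highest in shControl replicates 3 and 1.

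Transmembrane chains were above 0 for all 3 tested, with a median log2 fold change of 0.98, and 1.41 for the same 3 without shThoc1 replicate 2. Their summed level was 135, 19.3 and 133 CPM in shThoc1 lungs, against 43.2, 59.5 and 50.9 CPM in shControl lungs, so that shThoc1 replicate 2 lay below all others. Col17a1, the hemidesmosome collagen that anchors basal epithelial cells, was at 1.88, 4.94 and 1.78 CPM in shThoc1 lungs, against 0.630, 0.478 and 0.659 CPM in shControl lungs. It rests on 125 counts in all. Every shThoc1 library was above every shControl library, with a log2 fold change of 2.25 (SE 0.56, unadjusted p = 0.00672, adjusted p = 0.304 by edgeR), and 1.55 without shThoc1 replicate 2. The authors' deposited table gives Col17a1 an adjusted p of 0.0336. The airway basal list summed to 4.93, 346 and 7.36 CPM in shThoc1 lungs, against 2.59, 2.07 and 8.79 CPM in shControl lungs, with Krt5 at 0 in shThoc1 replicate 1 and shControl replicate 2. Its part in the Col17a1 values was not tested.

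Col23a1, a membrane collagen that can be shed, was at 102, 13.0 and 107 CPM in shThoc1 lungs, against 28.1, 41.3 and 43.4 CPM in shControl lungs. The groups overlapped through shThoc1 replicate 2 (log2 fold change 0.98, SE 0.73, adjusted p = 0.490 by edgeR). Without that library the log2 fold change was 1.41 (SE 0.23, adjusted p = 0.0530 by edgeR). Col13a1, found at cell junctions and the nerve-muscle synapse, was at 31.0, 0.593 and 24.7 CPM in shThoc1 lungs, against 13.2, 15.1 and 6.74 CPM in shControl lungs (log2 fold change 0.69, SE 1.12, adjusted p = 0.748 by edgeR). Without shThoc1 replicate 2 the log2 fold change of Col13a1 was 1.19 (adjusted p = 0.106 by edgeR), and the remaining groups did not overlap. The endothelial list summed to 4920, 363 and 3866 CPM in shThoc1 lungs, against 1407, 2222 and 1248 CPM in shControl lungs, and its part in these values was not tested. Col25a1, the other transmembrane chain, had 67 counts in all and was not tested over the 6 libraries. It was at 0.139, 0.691 and 0.297 CPM in shThoc1 lungs, against 1.26, 2.71 and 0.146 CPM in shControl lungs, with overlap. The fit without shThoc1 replicate 2 kept Col25a1, with a log2 fold change of -2.67 (SE 1.27, adjusted p = 0.206 by edgeR).

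Among the hexagonal network chains, Col8a1, a short-chain collagen made by vessel and mesenchymal cells, was at 11.9, 29.5 and 17.0 CPM in shThoc1 lungs, against 34.9, 51.5 and 68.4 CPM in shControl lungs. The groups did not overlap. Its log2 fold change was -1.41 (SE 0.42, unadjusted p = 0.0155, adjusted p = 0.304 by edgeR), and its adjusted p was 0.0441 in the authors' deposited table. Without shThoc1 replicate 2 the log2 fold change was -1.90 (adjusted p = 0.0571 by edgeR). The partner chain of Col8a1, Col8a2, overlapped, with a log2 fold change of 0.30 (SE 0.77).

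Col10a1, the collagen of hypertrophic cartilage, had the largest fitted difference of the chains and the widest spread. It was at 0.0695, 5.53 and 0.0743 CPM in shThoc1 lungs, against 25.0, 0.717 and 145 CPM in shControl lungs. The groups overlapped, with a log2 fold change of -4.97 (SE 2.23, unadjusted p = 0.0673, adjusted p = 0.325 by edgeR) that ran from -9.52 to -2.79 when 1 library was left out. The neuroendocrine list summed to 24.1, 281 and 25.5 CPM in shThoc1 lungs, against 910, 105 and 1072 CPM in shControl lungs. All 10 of its markers were below 0, and its part in the Col10a1 values was not tested. Of the chondrocyte list, Acan, Matn1, Matn3, Cnmd and Snorc were at 0 in at least 1 library. The list summed to 89.3 to 128 CPM in shThoc1 lungs, against 95.3 to 163 CPM in shControl lungs. Without its gene Chad it summed to 67.2, 33.5 and 74.2 CPM in shThoc1 lungs, against 112.9, 81.97 and 113.4 CPM in shControl lungs, with no overlap of the sums. Most of this sum was Sox6 in shControl replicates 1 and 3, and Matn4 in shControl replicate 2. Matn4 was at 46.7, 1.88 and 49.5 CPM in shThoc1 lungs, against 24.4, 58.0 and 13.7 CPM in shControl lungs, with overlap (log2 fold change 0.031). Of its 7 tested genes 4 were below 0 and 3 above. Its gene Sox6 was at 7.37, 10.96 and 8.32 CPM in shThoc1 lungs, against 77.2, 6.45 and 87.7 CPM in shControl lungs. Like Col10a1 it was highest in shControl replicates 3 and 1. The groups overlapped for Sox6, with a log2 fold change of -2.69 (adjusted p = 0.304 by edgeR, and 0.0324 in the authors' deposited table). Sox5 went the other way, with no overlap and a log2 fold change of 0.84 (adjusted p = 0.304 by edgeR, and 0.0264 in the authors' deposited table). The part of the chondrocyte list in the Col10a1 values was not tested. Exons of Col10a1 share 18 bases with Nt5dc1 on the other strand.

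FACIT chains, which sit on the surface of fibrils, had a median log2 fold change of -0.53 over 5 tested, with 4 below 0, and 0.32 without shControl replicate 2. Col12a1, found on type I fibrils under tension, was at 22.7, 31.6 and 48.3 CPM in shThoc1 lungs, against 33.0, 114 and 21.6 CPM in shControl lungs. Its groups overlapped (log2 fold change -0.72, SE 0.67), and without shControl replicate 2 the value was 0.32. Col14a1, a related fibril-associated chain, was at 27.6, 50.2 and 21.8 CPM in shThoc1 lungs, against 61.7, 26.9 and 58.1 CPM in shControl lungs (log2 fold change -0.56, SE 0.45). Without shThoc1 replicate 2 the log2 fold change of Col14a1 was -1.05 (adjusted p = 0.144 by edgeR), and the groups still overlapped. The other 3 tested, Col9a3, Col16a1 and Col20a1, ran from -0.53 to 0.54. Col9a1, Col9a2 and Col22a1 had 5, 116 and 208 counts in all and were not tested. Col22a1, a chain known from tissue junctions, was at 0.0695, 0.691 and 2.15 CPM in shThoc1 lungs, against 0.420, 12.9 and 0.220 CPM in shControl lungs, highest in each group in the library that holds Ibsp.

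Col7a1, the chain of the anchoring fibrils that fasten epithelium to the tissue below, was at 9.66, 4.44 and 12.5 CPM in shThoc1 lungs, against 10.1, 12.3 and 5.27 CPM in shControl lungs (log2 fold change -0.057, SE 0.51). Col28a1 was at 0.347, 11.3 and 1.71 CPM in shThoc1 lungs, against 3.71, 9.72 and 0.879 CPM in shControl lungs, with a log2 fold change of -0.11 (SE 1.33) and of -2.28 without shThoc1 replicate 2. Col26a1 was at 0.0695, 0.395 and 0.223 CPM in shThoc1 lungs, against 0.560, 0.398 and 0.806 CPM in shControl lungs, and was not tested.

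Per kilobase of transcript, the order of the chains was not the same in the 2 groups, though no difference in order was tested. In shThoc1 lungs the 5 highest were Col3a1 (56.6 ± 37.2 CPM per kb), Col4a2 (49.5 ± 35.5), Col1a2 (48.0 ± 37.9), Col6a1 (41.2 ± 23.8) and Col4a1 (39.2 ± 26.7 CPM per kb, SD, n = 3). In shControl lungs they were Col3a1 (237 ± 149 CPM per kb), Col1a2 (174 ± 161), Col4a1 (94.4 ± 60.5), Col4a2 (90.0 ± 51.8) and Col1a1 (81.6 ± 66.8 CPM per kb, SD, n = 3). Each step between neighbours in either order was smaller than the larger of their SDs. Col3a1 stood first in both groups.

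Ratios between chains of one library depend little on the scaling between libraries, and 8 were compared by an exact permutation test over the 20 assignments of samples, two-sided, whose smallest possible p is 0.1. None can therefore pass a threshold of 0.05. The log2 ratio of Col1a1 to Col1a2, chains that share the type I trimer, was -1.69, -1.81 and -1.11 in shThoc1 lungs, against -0.58, -1.05 and -1.02 in shControl lungs. These did not overlap, and the means differed by -0.66 (exact p = 0.1, adjusted over the 8 ratios 0.4). The log2 ratio of Col6a1 to Col6a2 was 1.53, 1.48 and 1.53 in shThoc1 lungs, against 0.98, 1.19 and 1.29 in shControl lungs. These did not overlap either, with a difference of 0.36 (exact p = 0.1, adjusted 0.4).

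The other 6 ratios overlapped. The log2 ratio of Col15a1 to Col18a1 averaged -1.63 ± 1.47 in shThoc1 lungs and 0.10 ± 0.62 in shControl lungs (SD, n = 3 each, exact p = 0.2), with shThoc1 replicate 2 at 0.068 among the shControl values. Col4a1 to Col4a2 averaged -0.19 ± 0.26 in shThoc1 lungs and 0.060 ± 0.13 in shControl lungs (SD, n = 3 each, exact p = 0.2). Col4a3 to Col4a4 differed by -0.21, Col4a3 to Col4a1 by 0.47, Col3a1 to Col1a1 by 0.29 and Col5a1 to Col5a2 by -0.017, with exact p from 0.3 to 1.0. The ratio of Col4a3 to Col4a1 was -0.97, -4.49 and -0.93 in shThoc1 lungs, against -2.76, -2.77 and -2.28 in shControl lungs, so that shThoc1 replicates 1 and 3 lay above and replicate 2 below all shControl libraries.

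**Figure D5:**
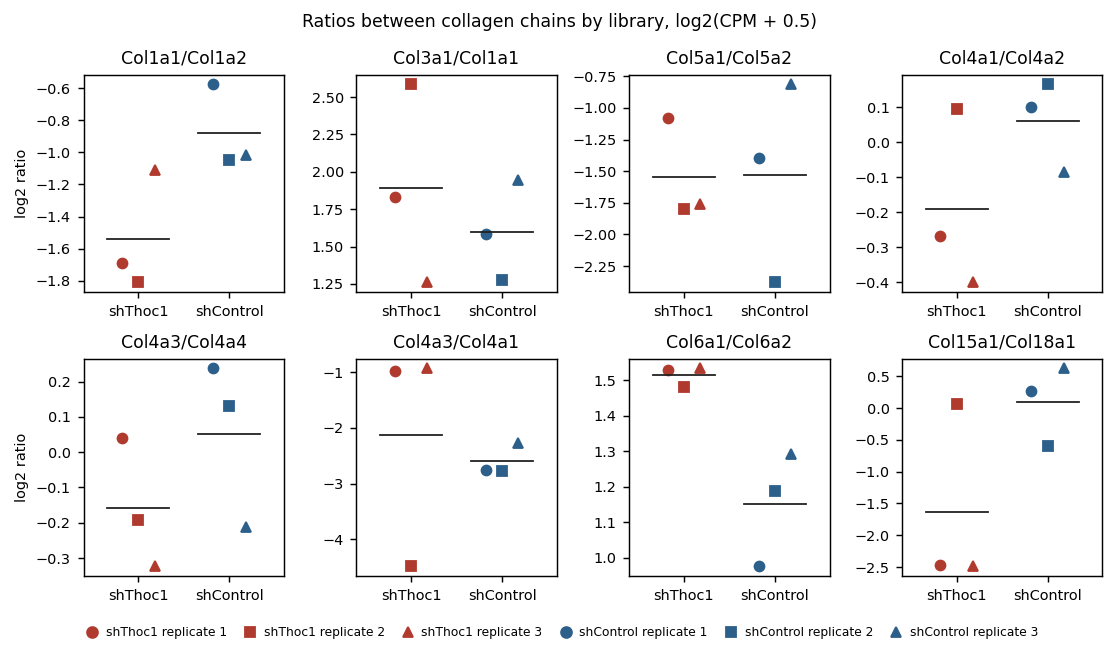
Log2 ratio of 8 pairs of chains (y axis, from CPM + 0.5, one scale per panel) in each library, shThoc1 in red and shControl in blue, with group means as black lines. The groups are apart for Col1a1/Col1a2 and Col6a1/Col6a2 and overlap for the other 6 pairs.

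The genes that make, mature, bind and break down collagen were counted by 7 lists, of which edgeR called 0 genes at an adjusted p under 0.05. Without shThoc1 replicate 2, list medians were -0.030 for folding and modification, -0.30 for cleavage and crosslinking and -0.59 for breakdown and inhibitors. They were -0.030 for receptors, -0.26 for proteoglycans, 0.11 for basement membrane partners and -0.34 for TGF-beta genes. Of the 21 genes for folding and modification of chains, 14 were below 0 with a median of -0.29, and 0 had an unadjusted p under 0.05. The 2 with the smallest p were Colgalt1, a collagen galactosyltransferase, at 85.6 ± 8.6 CPM in shThoc1 lungs and 111 ± 5.2 CPM in shControl lungs (log2 fold change -0.37), and its relative Colgalt2 at 16.6 ± 12.8 CPM in shThoc1 lungs and 5.96 ± 0.69 CPM in shControl lungs (log2 fold change 1.48, SD, n = 3 each).

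Of 12 genes for cleavage of procollagen and crosslinking, 9 were below 0 with a median of -0.54, beside 47.9% of all genes below 0, and 3 were lower at an unadjusted p under 0.05, beside 9.24% of all genes. Loxl2, a lysyl oxidase that crosslinks type IV and other collagens, was at 10.1, 6.91 and 13.4 CPM in shThoc1 lungs, against 30.0, 42.1 and 27.8 CPM in shControl lungs. The groups did not overlap, with a log2 fold change of -1.71 (SE 0.33, adjusted p = 0.304 by edgeR, and 0.00049 in the authors' deposited table). Adamts2, which removes the amino end of fibrillar procollagens, was at 19.9, 14.3 and 25.9 CPM in shThoc1 lungs, against 44.5, 66.6 and 29.7 CPM in shControl lungs (log2 fold change -1.23, SE 0.37, adjusted p = 0.304 by edgeR).

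Of 13 genes for breakdown of collagen and its inhibitors, 10 were below 0 with a median of -0.88, and 3 were lower at an unadjusted p under 0.05, beside 9.24% of all genes. Timp1, an inhibitor of matrix metalloproteinases, was at 5.14, 10.8 and 10.4 CPM in shThoc1 lungs, against 60.4, 109 and 32.4 CPM in shControl lungs (log2 fold change -2.94, SE 0.55). Mmp16, a membrane metalloproteinase, was at 0.973, 0.691 and 0.743 CPM in shThoc1 lungs, against 3.71, 3.35 and 4.47 CPM in shControl lungs (log2 fold change -2.24, SE 0.38). For both the groups did not overlap, and the authors' deposited table calls both lower, with an adjusted p of 5.29e-05 for Timp1 and 0.000344 for Mmp16. The genes of this list above 0 were the other inhibitors, Timp2 (0.64) and Timp3 (0.53), which overlapped, and Timp4 (1.56), which did not. Timp4 was at 8.41, 27.8 and 7.43 CPM in shThoc1 lungs, against 5.95, 2.63 and 6.15 CPM in shControl lungs.

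Collagen receptors were divided evenly, with 4 of 8 tested below 0 and a median of 0.033. The integrin chain Itga2 had a log2 fold change of 0.90 and Itga11 of -1.39, and the groups overlapped for both. Of 9 proteoglycans that bind fibrils, 6 were below 0 with a median of -0.35. Dcn, which binds type I fibrils, was at 211, 562 and 201 CPM in shThoc1 lungs, against 62.9, 161 and 138 CPM in shControl lungs. The groups did not overlap (log2 fold change 1.43, SE 0.55, unadjusted p = 0.0414, adjusted p = 0.304 by edgeR). Without shThoc1 replicate 2, its highest library, the log2 fold change of Dcn was 0.70. Ogn had a log2 fold change of 1.05, with overlap, and of 1.42 without shThoc1 replicate 2. Of 17 laminins and other basement membrane partners, 11 were below 0 with a median of -0.28 and 0 had an unadjusted p under 0.05. Without shThoc1 replicate 2 the median of these partners changed sign, to 0.11. The 2 with the smallest p were the perlecan gene Hspg2 (log2 fold change -0.79) and the nidogen gene Nid1 (log2 fold change -0.53).

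Of 14 ligands, receptors and targets of TGF-beta, a growth factor known for raising collagen transcription in fibroblasts, 9 were below 0 with a median of -0.38, and at an unadjusted p under 0.05, 2 were lower, beside 9.24% of all genes, and 1 was higher, beside 6.93% of all genes, which leaves both counts near these shares. The fibronectin gene Fn1 was at 255, 202 and 212 CPM in shThoc1 lungs, against 753, 827 and 437 CPM in shControl lungs, with no overlap (log2 fold change -1.59, SE 0.30). Its adjusted p was 0.304 by edgeR, and the authors' deposited table calls Fn1 lower, with an adjusted p of 0.00027.

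Marker lists of the cells a lung sample can hold are given by their summed levels, which no test compared between groups, and their part in the collagen values was not tested. The fibroblast list (10 genes, 4 below 0, median log2 fold change 0.079) summed to 374 to 756 CPM in shThoc1 lungs, against 378 to 809 CPM in shControl lungs. The pericyte list (7 genes, 4 below 0, median log2 fold change -0.039) summed to 212 to 233 CPM in shThoc1 lungs, against 280 to 724 CPM in shControl lungs, and without its gene Rgs5 to 89.4 to 226 CPM in shThoc1 lungs, against 140 to 231 CPM in shControl lungs. The dividing-cell list (8 genes, 8 below 0, median log2 fold change -2.11) summed to 48.2, 581 and 104 CPM in shThoc1 lungs, against 579 to 1200.1 CPM in shControl lungs. Only shThoc1 replicate 2 reached the shControl range. The macrophage list (8 genes, 3 below 0, median log2 fold change 0.016) summed to 3549 to 6879 CPM in shThoc1 lungs, against 2009 to 3540 CPM in shControl lungs, nearly all of it Lyz2, without which it summed to 312 to 364 CPM in shThoc1 lungs, against 237 to 396 CPM in shControl lungs. Smooth muscle markers summed to 637 to 1480 CPM in shThoc1 lungs, against 729 to 1277 CPM in shControl lungs. Alveolar type 2 markers ran from 596 to 21667 CPM in shThoc1 lungs, against 6395 to 15639 CPM in shControl lungs. The adipocyte list ran from 198 to 2017 CPM in shThoc1 lungs, against 90.5 to 193 CPM in shControl lungs, and the lymphocyte list from 59.4 to 861 CPM in shThoc1 lungs, against 26.1 to 59.0 CPM in shControl lungs, both highest in shThoc1 replicate 2. Mesothelial markers ran from 232 to 389 CPM in shThoc1 lungs, against 48.7 to 246 CPM in shControl lungs, cardiac muscle markers from 229 to 356 CPM in shThoc1 lungs, against 24.6 to 448 CPM in shControl lungs, and Schwann cell markers from 54.2 to 413 CPM in shThoc1 lungs, against 89.3 to 98.5 CPM in shControl lungs. Most of the Schwann cell sum was Scn7a. Without that gene it was 6.25 to 21.2 CPM in shThoc1 lungs, against 4.22 to 8.06 CPM in shControl lungs. The shThoc1 replicate 2 library was the lowest with Scn7a and the highest without it.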

How the data were processed

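The authors deposited a single table of raw counts, one row a gene and one column a library. The genome build was GRCm39, per the submitters' processing notes. How reads were aligned and counted, and whether by strand, is not given in the sources used here. Per the file headers the same table holds the authors' log2 fold change, its standard error, a p-value and its adjusted form for each gene, under DESeq2's column names. Per the labels, RNA came from an RNeasy purification and went into NEBNext Ultra libraries.

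Labels set the groups. Replicate numbers follow the order of the records and pair nothing. Genes were tested over all 6 libraries with edgeR 4.0.16 in R 4.3.3 (filterByExpr, TMM, robust quasi-likelihood F-test, Benjamini-Hochberg over 15287 genes), with the SE taken from the F statistic. CPM uses TMM-scaled totals, and chain ratios use log2(CPM + 0.5). Lengths are those of the longest coding transcript in GENCODE's mouse annotation, which was of another build. Alternatives used limma 3.58.1 and DESeq2 1.42.0, other scalings and filters, the 2 shThoc1 libraries with a shared first number in their titles (replicates 2 and 3) summed, and each library left out. The fits were also run on simulated counts, which had a smaller spread than these data and no outlying library. That run therefore does not show how the fits perform on data as variable as these.

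The chains, classes and lists were chosen with earlier results of these data known. Values per library are given for the 2 chains of each class with the highest mean CPM, for chains with an unadjusted p under 0.05, for chains called by edgeR or in the authors' deposited table, and for chains without overlap and a log2 fold change of at least 1. From each pathway list the 2 genes with the smallest p are named, except 1 that is not reported here; marker lists are given as sums. Col1a1, Col4a3, Col4a4, Col4a5, Col6a4, Col11a1, Col22a1, Col25a1, Col27a1, Timp2, Timp3, Timp4 and the markers named singly were added after their values were seen.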

Additional observations from a re-analysis of the deposited data

How the results depend on the processing

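The count of called genes was 0 by edgeR, 916 by DESeq2 and 6817 by voom with quality weights, and 0 to 258 when 1 library was left out (258 without shThoc1 replicate 2). The count of called chains was 0 by edgeR, 6 by DESeq2, 11 by voom, and 0 to 1 when 1 library was left out. Leaving out 1 library moved the median log2 fold change of the tested chains between -1.14 and 0.025, of fibrillar chains between -1.98 and -0.78, of basement membrane chains between -0.14 and 0.74, of FACIT chains between -0.90 and 0.32 (the tested, fibrillar and FACIT chains highest without shControl replicate 2) and of multiplexin chains between -2.31 and -1.72. Under voom these medians were -0.37 for all chains, -0.95 for fibrillar chains and -2.33 for multiplexin chains. The voom median was 1.01 for basement membrane chains and 0.14 for FACIT chains, whose median thus changed sign. Signs turned under voom for 5 chains: Col12a1 (0.14), Col6a1 (0.29), Col7a1 (0.46), Col16a1 (0.69) and Col11a2 (0.095). With 1 library left out, 12 chains had the other sign in at least 1 fit. Of these, Col12a1 ran from -1.11 to 0.32, Col6a1 from -0.74 to 0.026, Col28a1 from -2.28 to 1.03 and Col7a1 from -0.38 to 0.20; Col11a1, Col24a1, Col11a2, Col9a3 and Col16a1 reached 0.025 to 1.33, and Col4a5, Col8a2 and Col4a3 reached -0.077, -0.41 and -0.28. Leaving out both libraries that hold Ibsp, chosen after seeing the data, turned 4 chains: Col12a1 (0.046), Col28a1 (1.44), Col24a1 (0.22) and Col11a2 (0.13); the cause was not tested. The ratio of Col3a1 to Col1a1 ran from -0.053 to 0.61, of Col4a3 to Col4a1 from -0.13 to 1.65 and of Col5a1 to Col5a2 from -0.44 to 0.34 with 1 library left out, and the last was 0.021 with a pseudocount of 2 and 0.10 with the 2 shThoc1 libraries summed. Of the 35 chains, 23 kept their sign in all 6 fits that leave out 1 library, 16 below 0 and 7 above. All 7 chains that were lower at an unadjusted p under 0.05 stayed below 0 in these fits. A further 486 of the recomputed values kept their direction and their side of the threshold or stayed within 1 SD, and 17 single-chain values passed the threshold under DESeq2, voom or without shThoc1 replicate 2. No paired analysis was possible because the titles of the 2 groups share fewer than 2 numbers that could pair libraries. The 8 untested chains had 5 to 208 counts in all and did not pass edgeR's filter on low counts.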
